A study of Mus musculus with 18 samples.

Results

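The response of MLL-AF1p leukemia cells to the menin inhibitor MI-2-2 was read in 6 of the 18 libraries of the series, 3 from cells treated with MI-2-2 and 3 from cells given DMSO. Genes were taken where the authors' RPKM (reads per kilobase of gene, scaled to the reads counted) was at least 1 in 3 or more of these 6 libraries, which kept 10624 of the 23418 genes listed. The cells were of C57BL/6 mice and transformed with an MLL-AF1p construct, and the DMSO controls carried that construct too. Both groups were cultured for 6 days in DMSO at 0.25%, with or without 6 uM MI-2-2, with fresh medium and compound on day 3. Parallel sets of 6 libraries from MLL-AF9 and MLL-AF6 cells, each with its own DMSO group at the same dose and time, were used here to ask where the MLL-AF1p response differed. The labels do not say whether the 3 libraries of a group came from separate cultures, nor whether the cells were 1 line, so p-values reflect the spread among these libraries alone, and that spread may be technical.

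MLL, a histone methyltransferase, becomes an oncogene when its amino-terminal part is joined to a partner protein, and the AF1p partner is EPS15, an adaptor of clathrin-mediated endocytosis. The fusion keeps the stretch of MLL that binds menin, and menin helps to hold it at target genes such as the Hox-a cluster and Meis1. These genes keep myeloid progenitors dividing and unable to mature. MI-2-2 occupies the MLL-binding pocket of menin, and loss of the fusion from its targets is known to be followed by myeloid differentiation. Men1, which encodes menin, was at 8.04, 6.29 and 7.4 RPKM under DMSO and at 7.08, 6.64 and 7.02 under MI-2-2, groups that overlapped. Eps15 and Mll1 reads may come from the fusion as well as from the normal alleles, and neither gene passed the test.

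Library depth was 48.88 to 56.3 M (1000000) counted reads in the DMSO group and 50.7 to 52.88 M in the MI-2-2 group. The first principal component of the 6 libraries, 90.6% of the variance, separated the treatments. DMSO replicate 2 stood apart from its group: 53 genes differed by at least 1 log2 unit from the mean of the other DMSO libraries, against 7 to 15 genes for each of the other 5 libraries. In that library the median cholesterol synthesis gene was 0.59 log2 units lower and the median glycolysis gene 0.44 lower than in the other DMSO libraries (medians of -0.59 and -0.44), and the median ATF4-linked gene was 0.53 higher. Results on those pathways are therefore given with and without it. Myeloid genes were abundant in every library, with Elane, a neutrophil protease gene, at 2576 RPKM or more. The marker lists of natural killer, erythroid and dendritic cells had 0 genes past the RPKM filter, and those of B cells 2 of 10, T cells 3 of 10 and endothelium 2 of 8. The summed T-cell list was 633.7 to 679.1 RPKM under DMSO and 229.2 to 266.5 under MI-2-2, nearly all of it Thy1 (624.7 to 669.9 and 218.7 to 255.4). In bulk RNA such as this, fewer cells of a kind and less RNA per cell cannot be told apart.

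MI-2-2 changed the level of 4928 of the 10624 genes (46.4%) at an adjusted p under 0.05 by limma on log2(RPKM + 0.5). Of these, 2055 rose (19.3%) and 2873 fell (27.0%), and in what follows "rose" and "fell" are used of such genes only. Most changes were small, with a median of 0.46 log2 units among the risen and -0.47 among the fallen, and the larger ones were mostly rises. A log2 change of at least 1 was reached by 425 risen genes (4.0%) and 291 fallen genes (2.74%), a change of at least 2 by 142 (1.34%) and 36 (0.339%), and a change of at least 3 by 54 risen (0.508%) and 6 fallen (0.0565%). Among the 9936 genes at RPKM 1 or more in all 6 libraries, which did not depend on 1 group to be kept, 1794 rose and 2614 fell. The median of all genes was -0.06. Because the pseudocount of 0.5 pulls low values together, log2 changes of genes near 1 RPKM are smaller here than the ratios of their levels.

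**Figure D1:**
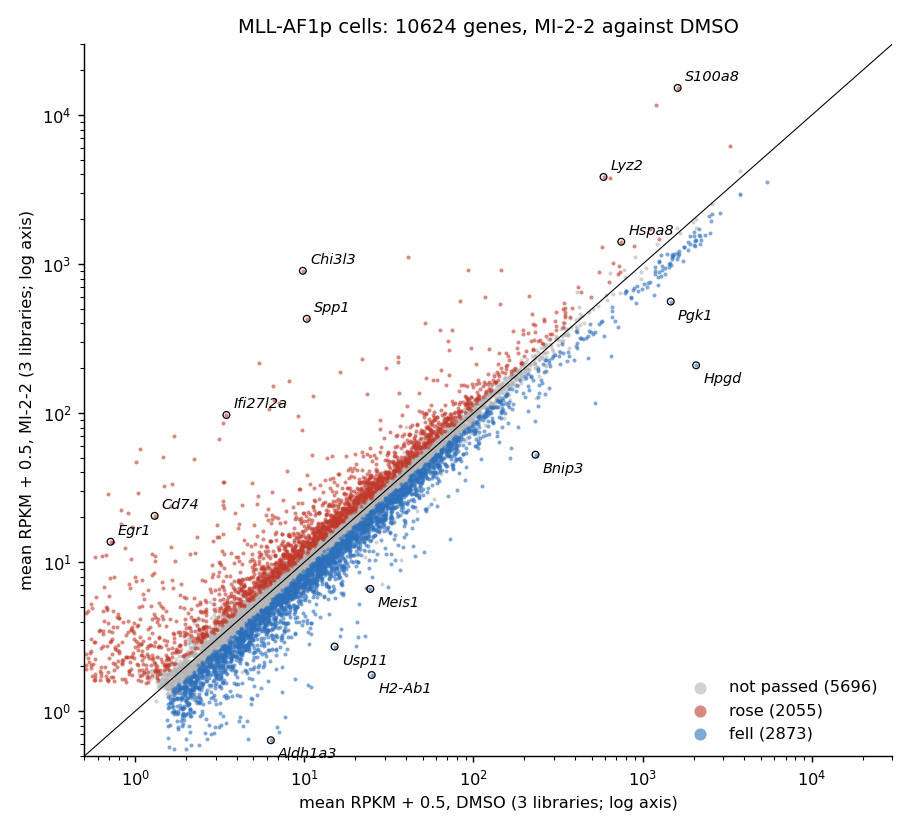
Mean RPKM + 0.5 of each of the 10624 genes under DMSO (horizontal, log axis) and MI-2-2 (vertical, log axis), 3 libraries each, with the diagonal marking equal levels and colours marking genes that rose or fell. Points far above the diagonal, such as Chi3l3 at 9.3 and 901.6 RPKM, outnumber those far below it, such as H2-Ab1 at 24.5 and 1.25.

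Neutrophil genes were prominent among the gains. S100a8, a subunit of the antimicrobial protein calprotectin, was at 1453, 1764 and 1615 RPKM under DMSO and at 13884, 17083 and 14675 under MI-2-2, a log2 change of 3.24 ± 0.14 (SE, n = 3 per group). With S100a9, its partner subunit, it made up 0.122% ± 0.0106 of the reads counted in DMSO libraries and 1.17% ± 0.102 in MI-2-2 libraries (SD, n = 3). The ranges did not overlap (exact permutation p = 0.1, the smallest that 3 against 3 libraries can give). Of the 33 listed genes of secondary and tertiary granules and mature neutrophils, 31 were kept, 28 rose and 1 fell, with a median log2 change of 2.64. With the list restricted to its 28 genes at RPKM 1 or more in all 6 libraries, 25 rose.

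Several of these genes started from near silence. The collagenase gene Mmp8 was at 0.793, 1.24 and 0.872 RPKM in DMSO libraries and at 50.9, 50.9 and 48.9 in MI-2-2 libraries, a 51.8-fold ratio of means. Fpr2, a receptor for bacterial formyl peptides, went from 0.178, 0.314 and 0.252 to 7.93, 7.19 and 7.19 RPKM (log2 change 3.41 ± 0.24, limma adjusted p = 2.4e-08). Lcn2, an iron-scavenging protein of the same granules, rose 10-fold by ratio of means, from 80.7 to 112 RPKM in the DMSO libraries to 908 to 931 in the MI-2-2 libraries. Ngp, neutrophilic granule protein, was already high and rose from 588 to 684 RPKM to 3623 to 3867. For each of these genes all 3 treated libraries lay above all 3 controls, as was true of 28.9% of all genes.

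Primary granule genes, which act earlier in neutrophil development, changed less. Of 15 listed and kept, 6 rose and 1 fell, beside 19.3% and 27.0% of all genes, and 8 did not pass (median 0.04). Their share of reads was 1.19% ± 0.148 under DMSO and 1.53% ± 0.0441 under MI-2-2 (SD, n = 3, exact permutation p = 0.1, the smallest possible). Lyz2, lysozyme, rose from 547, 655 and 559 to 3874, 3630 and 4028 RPKM. Its lowest count was 29002 reads in a DMSO library and 198436 in an MI-2-2 library, so it weighs heavily in that share. The gene is also in the lysosomal list below. Srgn, the proteoglycan that packs granule proteases, fell from 1199, 1075 and 1204 to 614, 636 and 615 RPKM (log2 change -0.90 ± 0.11, limma adjusted p = 1.2e-05). Calr, the chaperone that folds myeloperoxidase, rose by 0.70 ± 0.13 on the log2 scale.

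Promoters of the neutrophil genes were searched for short sequence features, and a pair that holds both is shown, from genes that rose. Windows of 300 bases (250 before to 50 after an annotated start, the most upstream listed) were taken from RefSeq on GRCm38.p6, a later build than the mm9 named by the submitters, and 8536 of the 10624 kept genes had one. The letters GAGGAAGT, a PU.1-like ETS motif, and TATAAA, the TATA box, were among a longer set of motifs searched on both strands. GAGGAAGT was found in 5 of 27 promoters of the secondary granule list (18.52%), against 3.48% of all 8536, and TATAAA in 10 of 27 (37.04%) against 6.64%. Across the 323 promoters of genes that rose by at least 1 log2 unit, the shares were 7.74% and 15.17%. Other motifs of the set differed as well. The AP-1 motif TGACTCA was in 8.05% of the 323 and 7.41% of the secondary granule list, against 3.36% of all. In that list the C/EBP-like TTGCGCAA was in 0 of 27, and TTGCNNCAA in 3 of 27 (11.11%, against 1.63% of all). Median GC content was 56.3% for the 323, against 61.0% for all promoters, and 51.3% for the secondary granule list. These are descriptions of letters in a window, with no test. The Mmp8 window and 220 bases of the S100a8 window hold both motifs, in capitals on either strand:
Mmp8 (chr9:7558179-7558478, + strand): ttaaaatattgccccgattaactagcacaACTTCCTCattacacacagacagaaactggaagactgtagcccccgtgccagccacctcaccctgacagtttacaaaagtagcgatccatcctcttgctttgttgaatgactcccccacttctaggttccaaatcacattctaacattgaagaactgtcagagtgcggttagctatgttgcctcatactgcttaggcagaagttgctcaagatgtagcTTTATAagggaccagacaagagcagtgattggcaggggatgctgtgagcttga
S100a8 (chr3:90668871-90669090, + strand): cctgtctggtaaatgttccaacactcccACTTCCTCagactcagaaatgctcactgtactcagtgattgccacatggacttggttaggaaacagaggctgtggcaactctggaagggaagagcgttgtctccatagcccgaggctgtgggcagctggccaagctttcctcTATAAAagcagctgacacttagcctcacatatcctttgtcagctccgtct

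**Figure D2:**
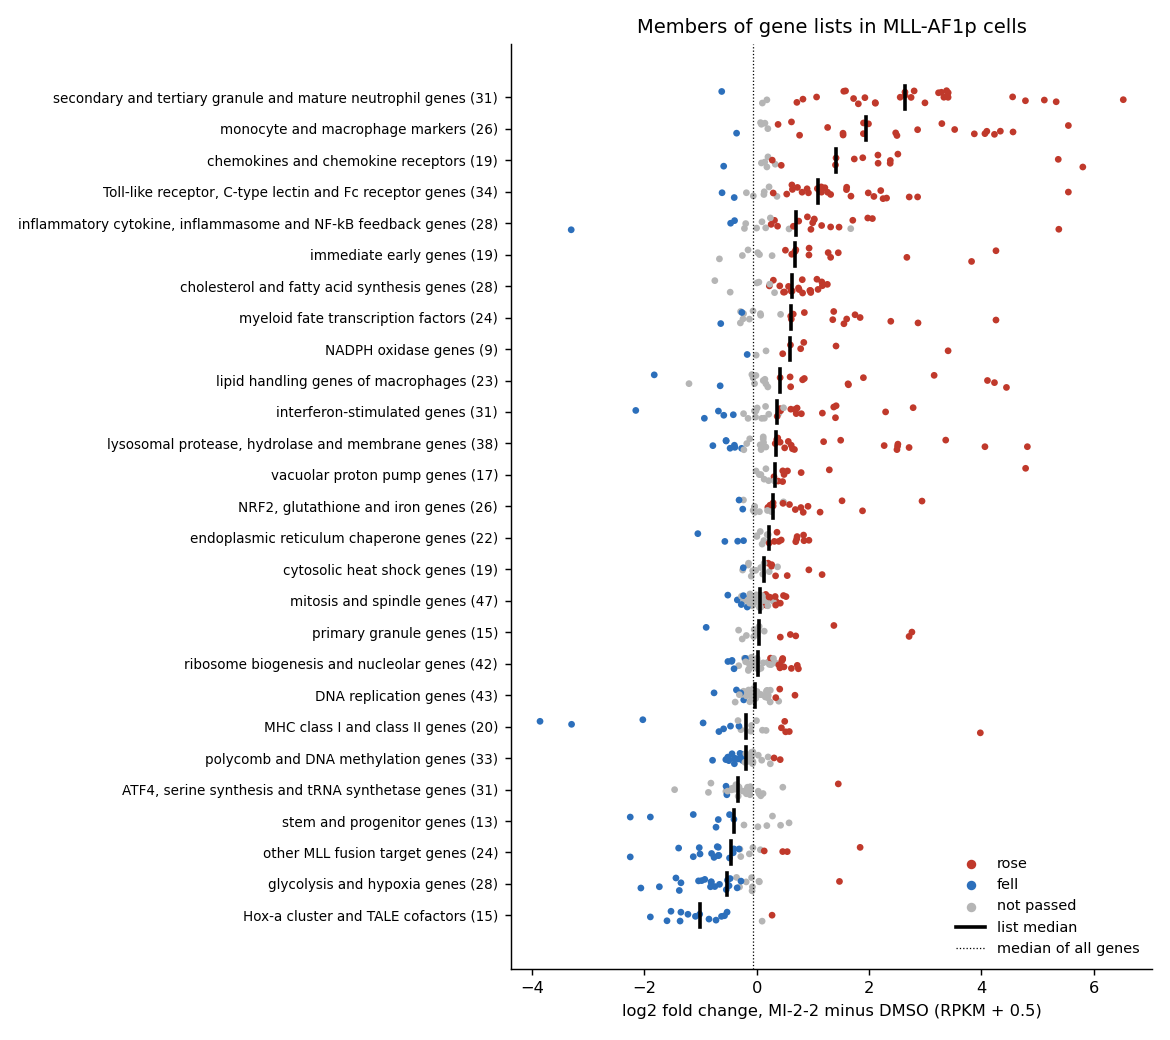
Log2 change (MI-2-2 minus DMSO) of the kept members of 27 gene lists, each point a gene coloured by whether it rose, fell or did not pass, with a bar at the list median and a dotted line at the median of all genes (-0.06). Secondary granule genes sit highest (median 2.64), Hox-a and TALE genes lowest (median -1.01), and DNA replication genes lie around -0.02.

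Transcription factors that steer myeloid fate moved less uniformly. Of 30 listed, 24 were kept, 13 rose and 2 fell (median 0.61), but among the 19 at RPKM 1 or more in all 6 libraries 8 rose and 2 fell, with a median of 0.07. Egr1, an immediate early factor linked to macrophage fate, was at 0.214, 0.186 and 0.246 RPKM under DMSO and at 12.4, 13.2 and 14.1 under MI-2-2. Klf4, a monocyte factor, was at 0.101 to 0.248 and 4.3 to 4.75 RPKM, a log2 change of 2.87 ± 0.16 that became 4.75 in the voom fit on recovered reads, which adds less to low values. Both pairs of groups were fully separated. Cebpe, the factor of late granulocyte maturation, rose from 36.8, 36.5 and 38.6 to 94.9, 98.6 and 98.5 RPKM. Sfpi1, the gene of PU.1, rose from 104, 106 and 101 to 161, 154 and 159 RPKM (log2 change 0.61 ± 0.09, limma adjusted p = 5.6e-05). Cebpa, the factor that starts granulocyte commitment, was at 112, 108 and 102 RPKM and at 95.1, 85.5 and 82.7, a log2 difference of -0.29 ± 0.14 that did not pass (adjusted p = 0.11). With the 6 MLL-AF1p libraries alone in the fit it passed (adjusted p = 0.00589).

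Most kept macrophage markers rose beside the neutrophil genes. Of 34 listed monocyte and macrophage markers, 26 were kept, 21 rose and 1 fell, with a median of 1.95. Among the 16 at RPKM 1 or more in all 6 libraries 11 rose and 1 fell (median 1.01). The summed RPKM of the 34 overlapped between groups, at 4114 to 4326 under DMSO and 4037 to 4382 under MI-2-2. Their share of reads was 0.513% ± 0.0143 and 0.764% ± 0.0174 (SD, n = 3). Trem2, a lipid-sensing receptor of macrophages, went from 0.356, 0.536 and 0.346 RPKM to 21.3, 19.8 and 22, with groups far apart. Spp1, osteopontin, a secreted adhesion protein of activated macrophages, was at 10.6, 9.42 and 9.47 RPKM under DMSO and at 426, 420 and 442 under MI-2-2 (43.6-fold by ratio of means). The gene of the fatty acid carrier Fabp4 rose from 0.285 to 0.349 RPKM to 16.8 to 18.6. Of 26 listed lipid handling genes of macrophages 23 were kept, with 12 risen and 2 fallen (median 0.42), and 7 risen and 1 fallen among the 17 at RPKM 1 or more throughout.

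Receptors that sense microbes followed the same direction. Of 39 listed Toll-like, C-type lectin and Fc receptor genes, 34 were kept, 26 rose and 2 fell (median 1.10), and 16 of the 24 at RPKM 1 or more in all libraries rose. Tlr7, an endosomal receptor for RNA, went from 0.753, 0.892 and 0.737 to 8.07, 7.65 and 8.27 RPKM. Clec7a, the beta-glucan receptor Dectin-1, went from 9.78, 12.8 and 9.16 to 50.7, 52.6 and 51.7 RPKM. The catalytic subunit of the phagocyte NADPH oxidase, Cybb, rose 11.1-fold by ratio of means, while its partners Ncf1, Ncf4 and Cyba rose by 0.84, 0.78 and 0.60 log2 units. Of the 9 oxidase genes 6 rose, 1 fell and 2 did not pass. Chemokine genes rose in 13 of 19 kept of 36 listed (1 fell), although 7 of the 13 at RPKM 1 or more throughout did so, with a median of 0.33 against 1.41 in all 19. Tnf, an inflammatory cytokine, rose from 3.84, 3.51 and 3.29 to 17.3, 15 and 16.9 RPKM, while Il1b, from 0.736 to 0.945 RPKM to 3.16 to 4.13, missed the threshold (adjusted p = 0.057) and passed by voom (0.0396).

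Lysosomal genes rose more often than they fell. Of 38 genes for lysosomal proteases, hydrolases and membrane proteins, all listed and kept, 20 rose, 7 fell and 11 did not pass (median 0.34), and they took 1.09% ± 0.0261 of reads under DMSO and 2.31% ± 0.0804 under MI-2-2 (SD, n = 3, exact permutation p = 0.1, the smallest possible). Lgmn, an asparaginyl endopeptidase, was at 0.517, 0.627 and 0.466 RPKM under DMSO and at 30.3, 25.5 and 30.6 under MI-2-2. Ctsd, cathepsin D, rose from 605, 541 and 577 to 1317, 1256 and 1364 RPKM. Among the 7 that fell, named after their values were seen, were the glycosidase, lipid and heparan sulfate hydrolase genes Glb1, Gaa, Smpd1, Manba and Naglu, and the protease gene Ctsl. Glb1, beta-galactosidase, had the largest fall of these, from 56, 57.2 and 54.8 to 33.5, 30.1 and 33.9 RPKM (log2 change -0.78 ± 0.10). In these fallen genes all MI-2-2 libraries lay below all DMSO libraries, as in 40.9% of all genes. Beside the counts of the list, 19.3% of all genes rose and 27.0% fell.

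The vacuolar proton pump, which acidifies lysosomes, was read through its subunits: of 18 listed genes 17 were kept, 10 rose and 7 did not pass (median 0.33). None fell in limma, none was lower at an unadjusted p under 0.05, and voom likewise called 0 lower. Atp6v0a1, a membrane subunit, rose from 3.6, 3.61 and 3.68 to 9.6, 9.9 and 9.39 RPKM, and Tcirg1, another, from 29.1, 22.2 and 27.1 to 48.3, 42.1 and 45.9. Of 20 regulators of lysosomes and autophagy 5 rose, 6 fell and 9 did not pass, beside 19.3% risen and 27.0% fallen of all genes. The risen were 3 without MI-2-2 replicate 2. Tfeb, a master factor of lysosomal genes, rose from 2.82, 3.02 and 2.66 to 4.97, 4.77 and 4.76 RPKM, whereas its relative Tfec fell by 0.64 ± 0.15 log2 units from 166 to 227 RPKM to 126 to 131.

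TFEB-family factors bind a palindrome of the letters TCACGTGA, which contains the E-box CACGTG. Searched on both strands, CACGTG was in 4 of 11 proton pump promoters (36.36%) and 8 of 31 lysosomal promoters (25.81%), against 10.92% of all. The longer TCACGTGA was in 3 of 11 and 3 of 31, against 2.18% of all, 2.89% of promoters of risen genes and 1.27% of fallen ones. Among genes that rose by at least 1 log2 unit the shares were 1.55% for TCACGTGA and 10.84% for CACGTG, both below those of all promoters. Shown are 150 bases of the promoters of Ctsd and of the pump subunit gene Atp6v1a, which rose from 93.8, 81.7 and 92.3 to 112, 114 and 110 RPKM, with TCACGTGA in capitals:
Ctsd (chr7:142387828-142387977, - strand): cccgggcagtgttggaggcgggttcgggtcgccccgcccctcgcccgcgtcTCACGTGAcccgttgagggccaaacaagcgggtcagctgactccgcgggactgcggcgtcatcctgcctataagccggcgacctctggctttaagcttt
Atp6v1a (chr16:44139290-44139439, - strand): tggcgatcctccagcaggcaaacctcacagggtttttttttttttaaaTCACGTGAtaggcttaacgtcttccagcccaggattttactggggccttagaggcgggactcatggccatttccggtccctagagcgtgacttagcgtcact

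Redox and iron genes were listed together. Of 26 genes for NRF2 targets, glutathione and iron, all kept, 14 rose, 2 fell and 10 did not pass (median 0.29). Slc11a1, which pumps metal ions out of phagosomes, went from 1.12, 1.25 and 1.04 to 13.1, 11.2 and 12 RPKM. The iron exporter gene Slc40a1 rose from 13.2, 12 and 14.3 to 48.2, 52.6 and 48.9 RPKM, and Fth1, ferritin heavy chain, from 213, 212 and 210 to 628, 579 and 621. Reads of ferritin genes can also come from their processed pseudogenes, so Fth1 is less certain than the transporters.

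Clathrin endocytosis, the process in which AF1p itself acts, was represented by 31 genes, of which 29 were kept, 15 rose, 3 fell and 11 did not pass (median 0.21). The count of 15 was 9 without MI-2-2 replicate 1. Hip1r, which links clathrin coats to actin, was at 0.972, 0.89 and 0.966 RPKM under DMSO and at 6.75, 7.04 and 6.87 under MI-2-2. Dab2, a cargo adaptor, rose from 1.05, 0.871 and 0.977 to 4.36, 4.29 and 4.55 RPKM. Stam, an endosomal sorting gene, fell from 17.5, 17.6 and 17.2 to 10.4, 10.3 and 10.6 RPKM. Eps15 was at 15.7 to 17.4 and 15.4 to 16.1 RPKM, groups that overlapped.

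Genes of antigen presentation by MHC class II went both ways. H2-Ab1, the beta chain of the I-A molecule, had the largest fall of the named genes on the log2(RPKM + 0.5) scale, though not by ratio of means, from 26.1, 22.7 and 24.8 RPKM under DMSO to 1.21, 0.923 and 1.61 under MI-2-2 (log2 change -3.86 ± 0.36, limma adjusted p = 5.7e-07). Its partner alpha chain H2-Aa went from 6.75, 6.63 and 6.34 to 0.282, 0.0904 and 0.312 RPKM, and the I-E beta chain H2-Eb1 from 1.9, 2.33 and 2.26 to 0.102, 0.232 and 0.13. Cd74, the invariant chain that escorts class II molecules, moved the opposite way, from 1, 0.784 and 0.624 to 20.4, 19.2 and 20.2 RPKM (log2 change 3.98 ± 0.22). In all 4 genes the groups were far apart, and the log2 change of H2-Eb1, a low gene, was -3.78 in the voom fit against -2.03 here.

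H2-DMa, which loads peptide onto class II, fell from 40.5, 39.7 and 41.6 to 25.8, 24.4 and 25.7 RPKM. Ciita, the class II master regulator, lay below the filter at 0 to 0.00388 RPKM in the 6 libraries. The class I light chain gene B2m rose from 837, 981 and 851 to 1285, 1281 and 1423 RPKM. Over the 21 listed MHC class I and II genes, 20 were kept, 5 rose, 8 fell and 7 did not pass, with a median of -0.19. Among the 16 at RPKM 1 or more in all libraries, 4 rose and 5 fell. Of all genes 19.3% rose and 27.0% fell. The dendritic cell list had no gene past the filter, and its sum was 1.04 to 1.19 RPKM under DMSO and 0.493 to 0.704 under MI-2-2. The part of dendritic cells in the class II values was not tested.

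**Figure D3:**
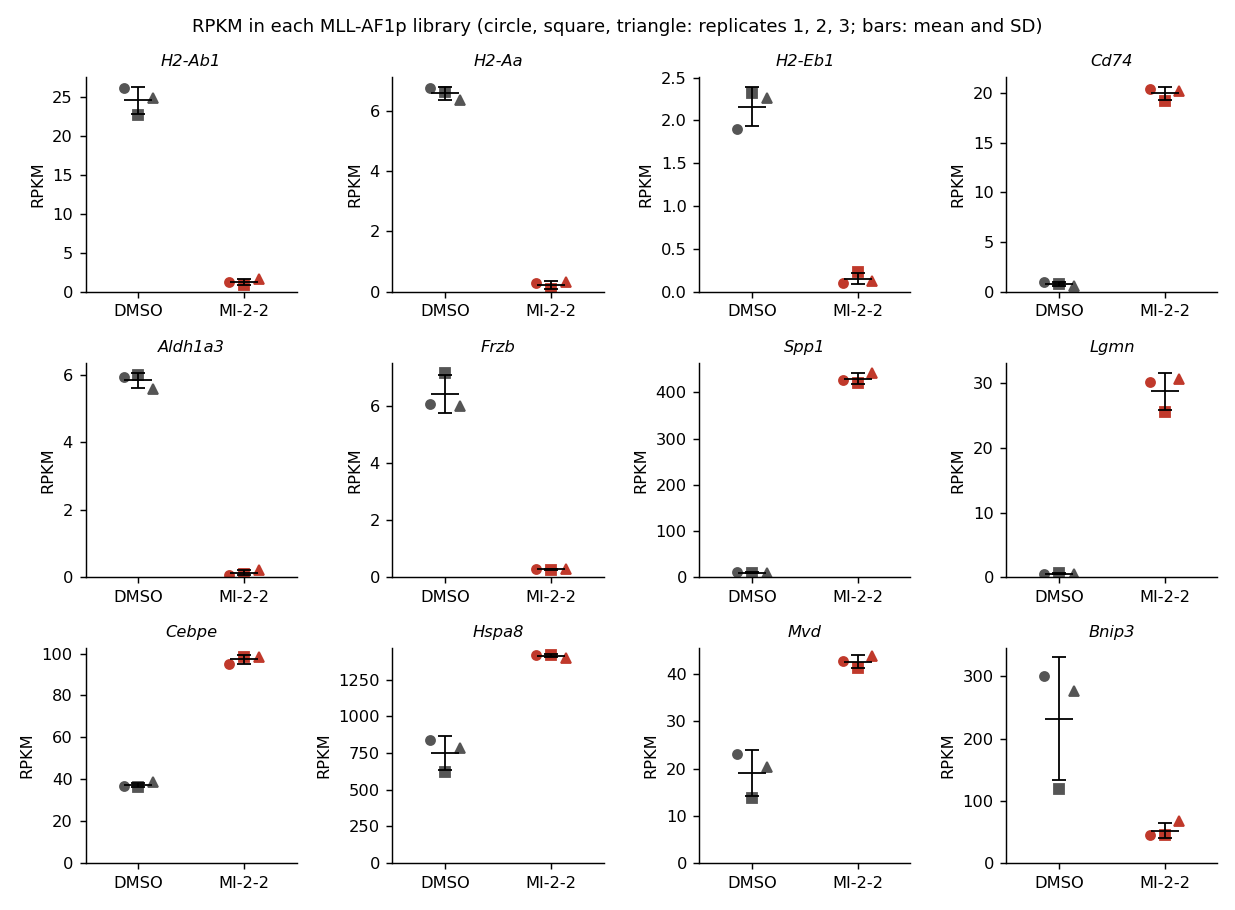
RPKM (linear axis) in the 3 DMSO and 3 MI-2-2 libraries for 12 genes, with a marker per replicate and bars for mean ± SD. H2-Ab1, H2-Aa and H2-Eb1 drop while Cd74 climbs to about 20 RPKM, and DMSO replicate 2 lies below the other controls for Mvd (13.8 against 20.4 and 23.2) and Bnip3 (119 against 277 and 300.4).

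Interferon-stimulated genes, which defend cells against viruses, rose in part. Of 40 listed, 31 were kept, 14 rose and 5 fell (median 0.37), and of the 28 at RPKM 1 or more throughout 11 rose and 4 fell. Oasl2 was at 0.52, 0.818 and 0.534 RPKM under DMSO and at 4.24, 4.11 and 7.04 under MI-2-2. Usp18, which damps the interferon receptor, was at 1.27, 1.68 and 1.1 and at 3.92, 3.39 and 6.32 RPKM. For both genes MI-2-2 replicate 3 was the highest, and the median gene of this list was 0.24 log2 units higher in it than in the other treated libraries. Ifi27l2a, a small mitochondrial interferon-induced gene, had the largest rise among interferon-linked genes named, from 3.12, 3.49 and 2.28 to 84.5, 82.1 and 124 RPKM.

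The interferon response element was searched as GAAANNGAA on both strands, and 15 of 24 promoters of the interferon list held it (62.5%), against 7.13% of all promoters. Among genes that rose by at least 1 log2 unit the share was 13%, and among those that fell by as much 3.51%. The promoter of Ifit1, at 0.264 to 0.409 RPKM under DMSO and 1.41 to 2.24 under MI-2-2, held 3 matches, of which 2 overlap, in capitals here on the opposite strand:
Ifit1 (chr19:34640739-34640888, + strand): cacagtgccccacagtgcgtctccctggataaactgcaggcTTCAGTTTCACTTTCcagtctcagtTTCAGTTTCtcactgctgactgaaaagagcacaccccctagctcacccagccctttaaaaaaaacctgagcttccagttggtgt

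The deepest falls outside class II were in genes of diverse roles. Aldh1a3, which makes retinoic acid, was at 5.93, 6.01 and 5.59 RPKM under DMSO and at 0.0831, 0.108 and 0.225 under MI-2-2, where the fewest reads in a library were 15. Its log2 change was -3.32 ± 0.12 on the log2(RPKM + 0.5) scale and -5.45 in the voom fit. Frzb, a secreted Wnt antagonist, went from 6.04, 7.15 and 5.99 to 0.278, 0.259 and 0.303 RPKM. Il2ra, the alpha chain of the interleukin-2 receptor, went from 7.28, 6.94 and 7.32 to 0.46, 0.289 and 0.498 RPKM, and the deubiquitinase gene Usp11 from 12.7, 16.9 and 14.2 to 2.09, 2.11 and 2.44. In each of these genes the groups were separated, as they were with MI-2-2 below DMSO for 40.9% of all genes. Serpina3g, a protease inhibitor gene, fell from 26.5, 17 and 23.2 to 3.13, 1.96 and 2.98 RPKM, with DMSO replicate 2 the lowest control.

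The Hox-a cluster and its TALE-class partners, the core MLL fusion targets, fell as a group. Of 19 listed, 15 were kept, 13 fell, 1 rose and 1 did not pass (median -1.01), and of the 12 at RPKM 1 or more in all libraries 10 fell. Hoxa11, a posterior member of the cluster, went from 39.1, 35.4 and 38.3 to 12.5, 11.8 and 12 RPKM (log2 change -1.60 ± 0.08). Hoxa3, an anterior member, went from 13, 10.7 and 11.8 to 3.81, 4.01 and 3.51 RPKM. Among the other members of the cluster, the log2 change was -1.22 for Hoxa4 (-2.13 in the voom fit), -1.09 for Hoxa6, -0.85 for Hoxa2 and -0.57 for Hoxa7. Pbx2, the cofactor that rose, did so by 0.28, while Pbx4, Pbx3 and Pknox1 fell by 1.01, 0.63 and 0.53. The members beyond the 6 largest changes of the list are named after their values were seen.

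Other described MLL fusion targets fell less evenly: of 28 listed, 24 were kept, 15 fell, 4 rose and 5 did not pass (median -0.45), and the risen count was 2 when any 1 of the 6 libraries was left out. Eya1, a transcriptional coactivator and phosphatase, fell from 14.4, 12.6 and 13.2 to 6.32, 6.24 and 6.43 RPKM. Myc was at 21.9, 22 and 21.7 RPKM under DMSO and at 15.9, 15 and 15.2 under MI-2-2, groups that did not overlap. Its log2 difference of -0.50 ± 0.23 missed the threshold in the fit over 18 libraries (adjusted p = 0.096). With the 6 MLL-AF1p libraries alone in the fit the adjusted p was 5.8e-05. Stem and progenitor genes fell in 7 of 13 kept of 24 listed and rose in 0 by limma, with 1 higher at an unadjusted p under 0.05 and 3 called higher by voom. Other limma fits called 4 higher (the 6 libraries alone), 3 (replicate block) or 1 (quantile normalization, or without DMSO replicate 2).

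**Figure D4:**
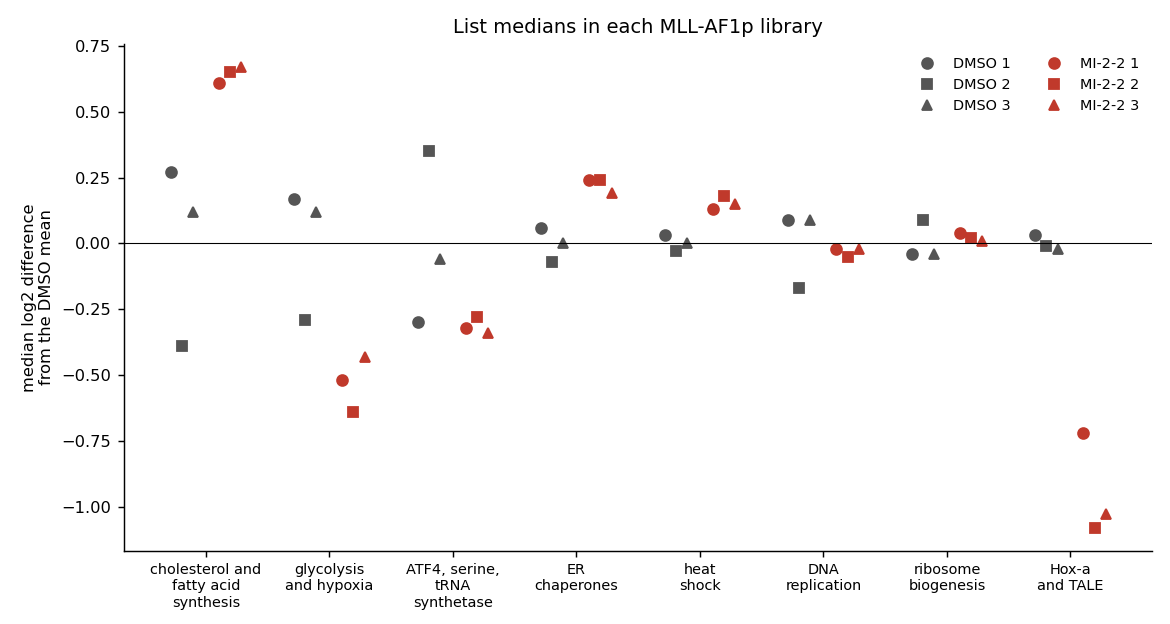
Median log2 difference from the DMSO mean, per library, of the kept genes of 8 lists, with DMSO and MI-2-2 libraries in separate colours. Cholesterol genes sit at -0.39 in DMSO replicate 2 and at 0.61 to 0.67 in the MI-2-2 libraries, while the 3 MI-2-2 libraries of the ATF4 list (-0.34 to -0.28) lie close to DMSO replicate 1 (-0.30).

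Sterol and fatty acid synthesis rose. Of 28 genes, all kept, 22 rose and 6 did not pass, with a median of 0.63. None fell by limma with all libraries, none was lower at an unadjusted p under 0.05, and voom called 0, while 2 fell with the replicate number as a block. Mvd, an enzyme of the mevalonate pathway, was at 23.2, 13.8 and 20.4 RPKM under DMSO and at 42.8, 41.3 and 43.9 under MI-2-2. Fdps, the next prenyl-chain step, was at 147, 85.2 and 138 and at 259, 279 and 270 RPKM. Treated libraries were above every control, and DMSO replicate 2 was the lowest control in both genes. Without that library 17 genes rose and 2 fell, the median was 0.49, and the log2 changes of Mvd and Fdps were 0.96 and 0.91 in place of 1.17 and 1.16. The list took 0.661%, 0.424% and 0.605% of reads in the DMSO libraries and 0.807%, 0.81% and 0.816% in the MI-2-2 libraries.

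Glycolysis and hypoxia genes fell. Of 29 listed, 28 were kept, 19 fell, 1 rose and 8 did not pass, with a median of -0.53, while without DMSO replicate 2 the fallen were 20 and the median -0.67. Pgk1, a glycolytic enzyme, was at 1631, 1179 and 1587 RPKM under DMSO and at 527, 528 and 626 under MI-2-2. Bnip3, a hypoxia-induced mitophagy receptor, was at 300.4, 119 and 277 and at 45.3, 44.2 and 66.9 RPKM, a log2 change of -2.06 ± 0.43 and, without DMSO replicate 2, of -2.48. Pdk1, a pyruvate dehydrogenase kinase, fell by 1.44 log2 units and Aldoc, an aldolase, by 1.35. Pfkfb4, a regulator of glycolytic flux, was the exception, rising from 9.6, 6.24 and 8.4 to 22.3, 23 and 23.8 RPKM. The share of reads on the list was 2.12% ± 0.367 and 1.39% ± 0.0896 (SD, n = 3, exact permutation p = 0.1, the smallest possible).

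HIF, the oxygen-sensing factor, recognises a core that the E-box CACGTG also contains. The Bnip3 promoter is shown because that gene had the largest fall of the list, with CACGTG in capitals. The letters were in 4 of 26 promoters of the list (15.38%), against 10.92% of all and 8.67% of fallen genes:
Bnip3 (chr7:138909517-138909666, - strand): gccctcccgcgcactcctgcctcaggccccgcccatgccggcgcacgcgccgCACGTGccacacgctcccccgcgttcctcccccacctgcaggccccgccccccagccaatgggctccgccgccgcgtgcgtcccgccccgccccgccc

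ATF4, the factor of the amino acid response, and its linked genes differed between the DMSO libraries. Of 32 listed, 31 were kept, 1 rose, 2 fell and 28 did not pass, while the median was -0.33. Trib3, a stress-induced pseudokinase, was at 12.5, 75.2 and 22.6 RPKM in the DMSO libraries and at 9.48, 10.4 and 9.58 in the MI-2-2 libraries. Ddit3, the stress factor CHOP, was at 22, 80.2 and 35.4 and at 20.9, 21.3 and 23 RPKM. In both genes replicate 2 was the highest control, and without it the median of the list was -0.14, with 2 risen and 1 fallen. Without DMSO replicate 1, in turn, 4 fell, and 9 fell with the replicate number as a block or with the 6 MLL-AF1p libraries alone in the fit.

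Chaperone genes were covered by a pair of lists. Of 22 endoplasmic reticulum chaperone genes 11 rose, 4 fell and 7 did not pass (median 0.22). Hyou1, a chaperone of the secretory pathway, went from 46.7, 47 and 44.4 to 84.2, 81.4 and 83.4 RPKM, and Hspa5, BiP, from 156, 164 and 145 to 253, 255 and 253. The stress sensor Ern1 fell from 19.3, 34.9 and 20.6 to 11.3, 11 and 12 RPKM, and Xbp1, the factor it activates, by 0.57 log2 units. The other 2 that fell were P4hb and Sel1l. Xbp1, P4hb and Sel1l are named after their values were seen. Of 19 kept cytosolic heat shock genes (22 listed) 7 rose, 1 fell and 11 did not pass (median 0.13), and 5 rose without DMSO replicate 2. Hspa8, the constitutive HSC70, was at 842, 619 and 782 RPKM under DMSO and at 1421, 1416 and 1400 under MI-2-2 (log2 change 0.93 ± 0.10, limma adjusted p = 2e-06), and 0.80 without DMSO replicate 2.

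Most proliferation genes did not pass the test, and neither did 5696 of all 10624 genes. Of 43 DNA replication genes 3 rose, 4 fell and 36 did not pass (median -0.02), and without DMSO replicate 2 the counts were 1 risen and 7 fallen. Without DMSO replicate 3, MI-2-2 replicate 1 or MI-2-2 replicate 3, 2 fell. With the replicate number as a block 9 fell, and with the 6 libraries alone in the fit 6 rose and 9 fell. Of 47 mitosis and spindle genes 10 rose, 5 fell and 32 did not pass (median 0.06), and 3 fell without those same libraries, each left out in turn, and 9 with the 6 libraries alone. Beside the counts of both lists, 19.3% of all genes rose and 27.0% fell. The share of reads on DNA replication genes was 0.532% ± 0.0596 and 0.536% ± 0.00232 (SD, n = 3, exact permutation p = 1.0). Mki67, the proliferation marker, was at 58.4, 51.3 and 57.5 RPKM and at 62.4, 64.4 and 62, a log2 difference of 0.18 ± 0.10 (adjusted p = 0.18). These shares of mRNA do not give a growth rate.

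Of 26 listed G1 cyclin, CDK and CDK inhibitor genes 24 were kept, 5 rose (8 with the 6 libraries alone) and 7 fell (median 0.03), beside 19.3% and 27.0% of all genes. Of 36 p53 target and BCL2 family genes 33 were kept, 9 rose and 7 fell (median 0.03). The genes that follow are examples with their values. Cdkn2a, which encodes the p16 and p19 inhibitors, fell from 7.78, 6.43 and 7.23 to 2.89, 2.86 and 3.07 RPKM. The CDK inhibitor genes Cdkn1a and Cdkn1b fell too, by 0.57 and 0.53 log2 units, and Plk1, a mitotic kinase, rose by 0.52. Bmf, a BH3-only killer of the BCL2 family, fell from 10.5, 10.6 and 10.3 to 3.6, 3.14 and 3.49 RPKM. Btg2, an antiproliferative p53 target, rose from 6.73, 7.44 and 7.39 to 17.6, 18.2 and 18.4.

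Protein synthesis genes were read as ribosomal proteins and as ribosome biogenesis genes. Genes for the cytoplasmic ribosomal proteins took 8.34% ± 0.191 of reads under DMSO and 6.1% ± 0.0795 under MI-2-2 (SD, n = 3, exact permutation p = 0.1, the smallest possible), and Rpl17 fell from 1636, 1902 and 1681 to 1018, 1087 and 1046 RPKM. Ribosomal protein genes have many near-identical pseudogenes, so single values are uncertain. Nucleolar and ribosome biogenesis genes, by contrast, took 0.545% ± 0.0354 and 0.549% ± 0.00926 of reads (exact permutation p = 0.9), with 11 risen, 5 fallen and 26 not passing of 42, and 3 fallen without MI-2-2 replicate 3 or 9 with the 6 libraries alone. Of all genes 19.3% rose and 27.0% fell. Bop1, a factor in large subunit maturation, rose from 26, 27.2 and 25.3 to 41.8, 39.4 and 40 RPKM.

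Chromatin genes fell more often than they rose among polycomb and DNA methylation genes: of 36 listed, 33 were kept, 13 fell, 2 rose and 18 did not pass (median -0.19). Cbx2, a polycomb reader, fell from 3.59, 3.56 and 3.82 to 1.92, 1.83 and 1.99 RPKM. Without DMSO replicate 2 the fallen were 9. The H3K4 demethylase gene Kdm5b fell from 13.7, 13.2 and 13.4 to 7.61, 6.96 and 7.33 RPKM. Among H3K4 enzymes in all, 5 rose, 5 fell and 12 did not pass of 22, beside 19.3% and 27.0% of all genes. The fallen were 3 without DMSO replicate 2 or 3 or MI-2-2 replicate 1 or 2, and 3 with median centring or voom.

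The response was next set against those of MLL-AF9 and MLL-AF6 cells by testing the difference of the effects, gene by gene. Depth differed with construct. By group it was 21.97 to 29.06 M reads (DMSO) and 21.18 to 28.43 M (MI-2-2) in MLL-AF9. In MLL-AF6 it was 27.94 to 30.25 M and 21.97 to 30.67 M, and in MLL-AF1p 48.88 to 56.3 M and 50.7 to 52.88 M. Against MLL-AF9, the effect was more positive in MLL-AF1p for 1417 genes (13.3%) and more negative for 2309 (21.7%). Against MLL-AF6 it was more positive for 2147 (20.2%) and more negative for 1215 (11.4%). These balances depended on scaling. With median centring they became 2135 and 1649 against MLL-AF9 and 1727 and 1524 against MLL-AF6, with quantile normalization 1830 and 1672, and 1862 and 1501. By voom they were 1839 and 2019, and 1414 and 1797. With reads thinned to the smallest library they were 1346 and 2189, and 2070 and 1167. The effect lay above both other constructs for 773 genes (7.28%), below both for 707 (6.65%) and between them for 181 (1.7%). In MLL-AF9 cells 28.8% of these genes rose and 27.9% fell, and in MLL-AF6 cells 17.6% rose and 39.8% fell. In all 3 constructs 916 genes rose and 1249 fell. Across the kept genes the log2 changes correlated with those of MLL-AF9 at r = 0.72 and of MLL-AF6 at r = 0.76, a description over genes, which are not independent replicates.

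**Figure D5:**
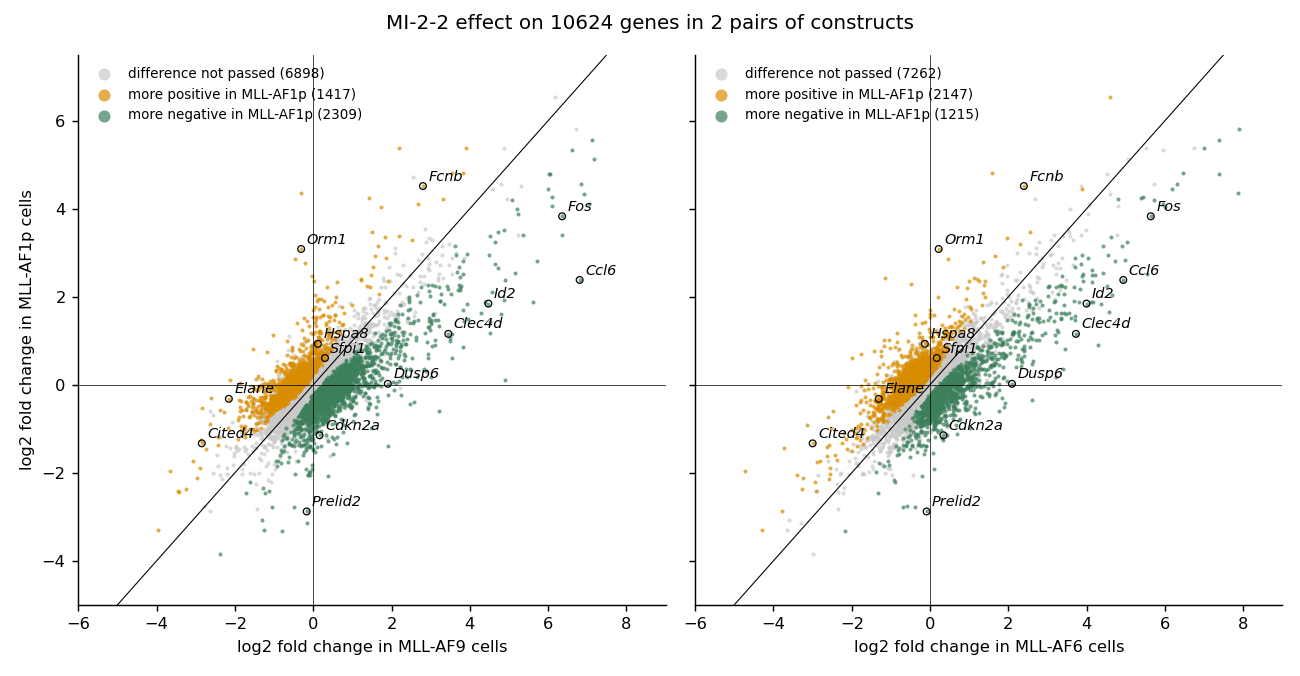
Log2 change of each gene in MLL-AF1p cells (vertical) against that in MLL-AF9 cells and in MLL-AF6 cells (horizontal), coloured where the difference passed the test. Orm1 (3.08 against -0.31 and 0.22) lies above the diagonal in both panels, and Id2 (1.84 against 4.47 and 4.00) and Dusp6 (0.02 against 1.90 and 2.09) below it.

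Ribosome biogenesis genes differed in 1 direction against both constructs. The median change was 0.02 in MLL-AF1p, -0.46 in MLL-AF9 and -0.60 in MLL-AF6 cells. Of 42 genes, 22 were more positive in MLL-AF1p than in MLL-AF9 and 26 than in MLL-AF6, beside 13.3% and 20.2% of all genes. None was more negative by limma, at an unadjusted p under 0.05, or by voom, in either comparison, and the positive counts were 22 to 26 under the scalings tried and without DMSO replicate 2. The log2 change of Bop1 was 0.62 in MLL-AF1p, -0.44 in MLL-AF9 and -0.72 in MLL-AF6 cells (adjusted p of the differences 2e-05 and 3.8e-06). For Rrp12, another nucleolar factor, it was 0.72, -0.10 (not passing) and -0.51.

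Heat shock genes were more positive too, in 8 of 19 against MLL-AF9 (1 more negative) and 11 of 19 against MLL-AF6. Of all genes 13.3% and 20.2% were more positive. Against MLL-AF6, no heat shock gene was more negative by limma, at an unadjusted p under 0.05, or by voom. The log2 difference of Hspa8 was 0.93 in MLL-AF1p, 0.12 in MLL-AF9 and -0.13 in MLL-AF6 cells, with adjusted p of 0.00048 and 6.7e-05 for the differences. Sterol synthesis was more positive than in MLL-AF6 for 23 of 28 genes (18 without DMSO replicate 2) and than in MLL-AF9 for 9 (7 more positive and 1 more negative without it). The same shares of all genes, 20.2% and 13.3%, stand beside these counts. With median centring, 2135 of all genes were more positive than in MLL-AF9, in place of 1417. The log2 difference of Bnip3 was -2.06 in MLL-AF1p, -0.13 in MLL-AF9 and -0.43 in MLL-AF6 cells. Against MLL-AF9 its effect differed with all libraries (adjusted p = 0.024) but not without DMSO replicate 1 (0.060), DMSO replicate 3 (0.060), MI-2-2 replicate 1 (0.054) or MI-2-2 replicate 2 (0.053). Its difference from MLL-AF6 missed the threshold with all libraries (adjusted p = 0.054) and passed without DMSO replicate 2 (0.018).

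In the opposite direction, effects on immediate early genes were lower. Of 19 kept, 13 rose in MLL-AF1p cells (median 0.69), against medians of 1.90 in MLL-AF9 and 1.13 in MLL-AF6 cells. Against these constructs 14 and 9 genes were more negative, beside 21.7% and 11.4% of all genes. None was more positive by limma or voom, with 0 and 1 so at an unadjusted p under 0.05. Fos, a growth-signal factor, rose by 3.83 in MLL-AF1p, 6.36 in MLL-AF9 and 5.64 in MLL-AF6 cells. Dusp6, the phosphatase that answers ERK signalling, was at 13.5, 13.5 and 14.8 RPKM under DMSO and at 14.4, 13.8 and 14.1 under MI-2-2. In MLL-AF9 and MLL-AF6 cells it rose by 1.90 and 2.09 log2 units. Mitosis genes were more negative in 24 of 47 against MLL-AF9 and 15 against MLL-AF6, with 1 and 4 more positive. Of all genes 21.7% and 11.4% were more negative. The all-gene count against MLL-AF9 was 1649 with median centring, in place of 2309.

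Interferon-stimulated genes stood between the constructs, with a median change of 0.37 in MLL-AF1p, 1.32 in MLL-AF9 and -0.53 in MLL-AF6 cells. Of 31 genes 21 were more negative than in MLL-AF9 (1 more positive), and 19 more positive than in MLL-AF6. Against MLL-AF6 none was more negative by limma, at an unadjusted p under 0.05, or by voom. Lysosomal genes had lower effects than in either construct, with 18 of 38 genes more negative in each comparison (3 more positive against MLL-AF9). Of all genes 21.7% were more negative against MLL-AF9 and 11.4% against MLL-AF6. None was more positive against MLL-AF6 by limma, at an unadjusted p under 0.05, or by voom.

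Of single genes, Orm1, an acute-phase plasma protein, was at 0.803, 0.632 and 0.978 RPKM under DMSO and at 10.3, 10.1 and 11.1 under MI-2-2 in MLL-AF1p cells. Its changes in MLL-AF9 and MLL-AF6 cells were -0.31 and 0.22. Cdkn2a, which fell by 1.15 log2 units here, was at log2 differences of 0.16 and 0.34 in MLL-AF9 and MLL-AF6 cells (adjusted p of the differences 0.00014 and 6.2e-05). Cebpa was at -0.29 here, which did not pass, and its log2 change was -1.67 in both others. Cd274, the checkpoint ligand PD-L1, was at 10.9, 13.3 and 11.3 and at 10.3, 10.6 and 11.5 RPKM here, groups that overlapped, and rose by 2.06 and 1.77 in MLL-AF9 and MLL-AF6 cells.

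A set of genes was steady by the width of its interval and not only by a missed test. For 1346 genes (12.7%) the 95% interval of the log2 change lay within -0.25 to 0.25. The most abundant were Ppia, a prolyl isomerase, at 2791, 2214 and 2758 and at 2487, 2577 and 2521 RPKM, and Myl6, a myosin light chain, at 764, 800.3 and 786 and at 808, 835 and 825. Myl6 passed the test with quantile normalization, at a log2 change of 0.17 (adjusted p = 0.0441). H3f3a and Atp5b, a histone variant and a subunit of ATP synthase, differed by -0.07 and 0.03 log2 units. Genes often taken as references did change: Actb, beta-actin, rose from 1105, 1084 and 1140 to 1734, 1724 and 1703 RPKM. Gapdh, a glycolytic enzyme, fell from 1569, 1236 and 1498 to 990, 936 and 1065, a call that ended with quantile normalization (adjusted p = 0.118).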

How the data were processed

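PolyA RNA of 18 libraries was sequenced with an unstranded kit from RNA of integrity number 8 or more, per the labels' protocols. Reads of overlapping genes on opposite strands cannot be told apart. The authors deposited 1 table of RPKM values with gene lengths, per the file headers. In the submitters' processing notes stand the tools HTSeq, Bowtie2 (2.0.0.7), edgeR and CASAVA (1.8.2) and the build mm9, with no role for each. RPKM times length was a whole number of reads for 100% of values (tolerance 0.05), and depth was read from it. Groups came from the labels. Tests used limma 3.58.1 (R 4.3.3; lmFit, eBayes with a trended prior) on log2(RPKM + 0.5), in 1 fit of 6 group means over 18 libraries with 12 residual degrees of freedom. P-values were adjusted by Benjamini-Hochberg over the 10624 genes. Shares of reads were compared by two-sided exact permutation tests. The code was tested on simulated data.

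The members and lists were chosen with earlier results of these data known. Named genes were the 12 largest rises and falls, up to 6 genes per list by size of change, 21 fixed genes, the 10 largest gains and losses in RPKM, 8 on each side that differed from both other constructs and 8 steady genes. The 16 kept genes whose names are plain numbers were counted and never named. Alternatives were a pseudocount of 0.1, no filter, RPKM of at least 1 in all 6 libraries, median centring, quantile normalization, a constant prior, a replicate block, the 6 libraries alone, voom on recovered reads and each library left out. Reads thinned to the smallest library were added after seeing the data. Plots came from Python 3.11.15 and matplotlib 3.10.9. Values of 3 listed genes are not reported here.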

Additional observations from a re-analysis of the deposited data

Results flagged for a closer look

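These genes are singled out because the test of the difference between constructs passed against both MLL-AF9 and MLL-AF6. Each value is the log2 MI-2-2 effect in MLL-AF1p cells minus that in the nearer of the other constructs, and each construct had its own controls.

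Among progenitor and target genes the differences were 0.43 for Men1, 0.66 for Meis1 and 0.96 for Myb. Hoxa10, at 0.36, and Mef2c, at 0.47, lay between the other constructs, nearer to MLL-AF6. The difference was 0.99 for Elane and 1.38 for Cebpa. Of immune genes, it was 2.87 for Orm1, 2.41 for the IgG receptor Fcgr1 and 1.71 for the lectin Fcnb. It was also 1.71 for Akr1c18 and for Rps4y2, 1.52 for Cited4 and 1.35 for Sh2d5.

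Less positive effects in MLL-AF1p were seen for Prelid2 (-2.71), Ccl6 (-2.55), Clec4d (-2.29), Id2 (-2.15) and Rgs11 (-2.08). Cd274 and Cd200r4 stood at -1.89 each, and Dusp6 at -1.88.

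Some of these calls were fragile. Without DMSO replicate 2 the differences of Men1 from MLL-AF9 and MLL-AF6 had adjusted p of 0.11 and 0.062, and those of Cited4 0.11 and 0.08. That of Men1 from MLL-AF9 did not pass without DMSO replicate 3 (0.063) or MI-2-2 replicate 1 (0.086), 2 (0.056) or 3 (0.082) either, and that from MLL-AF6 without MI-2-2 replicate 1 (0.054) or 3 (0.051). That of Cited4 from MLL-AF9 did not pass without DMSO replicate 3 (0.068) or MI-2-2 replicate 1 (0.10), 2 (0.050) or 3 (0.075), and that from MLL-AF6 without DMSO replicate 3 (0.052) or MI-2-2 replicate 1 (0.076) or 3 (0.056). The difference of Hoxa10 from MLL-AF6 did not pass without DMSO replicate 2 (adjusted p = 0.057), DMSO replicate 3 (0.066), MI-2-2 replicate 1 (0.066) or MI-2-2 replicate 2 (0.067). That of Mef2c did not pass without DMSO replicate 1 (0.056), DMSO replicate 3 (0.055), MI-2-2 replicate 1 (0.059) or MI-2-2 replicate 2 (0.050), and that of Fcgr1 from MLL-AF6 without MI-2-2 replicate 3 (0.052). That of Rgs11 from MLL-AF6 did not pass without DMSO replicate 1 (0.059), DMSO replicate 3 (0.056), MI-2-2 replicate 1 (0.058) or MI-2-2 replicate 2 (0.057). With voom the differences of Fcnb were 0.66 and -1.56 (adjusted p = 0.37 and 0.12), and with quantile normalization that of Elane from MLL-AF6 was 0.23 (adjusted p = 0.66). By voom those of Akr1c18 from MLL-AF9 (0.11) and Rps4y2 from MLL-AF6 (0.056) did not pass. The causes were not tested.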

How the results depend on the processing

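With each MLL-AF1p library left out in turn, 1647 to 1881 genes rose and 2311 to 2616 fell. Against MLL-AF9, 1103 to 1314 were then more positive and 1857 to 2100 more negative, and against MLL-AF6 1706 to 2001 and 978 to 1130. Fewer libraries enter these fits. Of the differences between constructs, 2135 genes were more positive than in MLL-AF9 with median centring, in place of 1417, and 1414 more positive than in MLL-AF6 by voom, in place of 2147; the cause was not tested. Counts of risen and fallen genes stayed within 1.5 times under each alternative. Over 266 named genes and 4201 alternative values, 4114 kept their direction and side of the threshold, 42 lost the call, 45 gained it and 0 reversed. Samples sharing a replicate number were not shown to be paired: their deviations correlated at 0.15, 0.24 and 0.043. With the replicate number as a block, 2341 genes rose and 3397 fell, 2022 and 2841 of them shared with the fit without it. With depths of 48.88 to 56.3 M reads, low genes such as Ctsk, with 2 reads in a DMSO library, have wide counting error.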
